A study of Homo sapiens with 8 samples.

Results

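Messenger RNA of CUTLL1 cells was compared between cultures given PF-03084014 together with dexamethasone and cultures given PF-03084014 alone. The arrays were chosen by their treatment labels, which gave 2 arrays for the combination and 2 for PF-03084014 alone, 4 of the 8 arrays of the series. CUTLL1 is an established line of T-cell acute lymphoblastic leukemia (T-ALL), and all cultures came from this 1 line. Each compound was used at 1 microM for 48 h. The comparison asks what a glucocorticoid changes in these cells when NOTCH1 signalling is inhibited as well. No order of the 2 compounds is given in the labels. The other 4 arrays, 2 with dexamethasone at 1 microM and 2 with the vehicle DMSO, also for 48 h, served as the setting in which dexamethasone was given without PF-03084014. Arrays of one treatment are called replicas in the labels, with no word on separate cultures. The p-values therefore reflect the spread between these arrays only, which may be technical.

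Dexamethasone is a synthetic glucocorticoid. It enters the cell and binds the glucocorticoid receptor, encoded by NR3C1, which is held in the cytoplasm by chaperones and then moves to the nucleus, where it raises the transcription of some genes and represses others. In lymphoid cells glucocorticoids slow proliferation and cause apoptosis, for which the BH3-only protein BIM (BCL2L11) is a known mediator, and they are a mainstay of T-ALL treatment. PF-03084014 is an inhibitor of gamma-secretase, the protease that releases the active intracellular part of NOTCH1.

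The deposited values are probe-set intensities, given here on a log2 scale with a floor of 16 in intensity, which is a level of 4. A difference of 1 is thus a 2-fold change. The values ± are the differences with the standard error (SE) of a limma fit of all 8 arrays, and a gene is said to have risen or fallen only at a Benjamini-Hochberg adjusted p under 0.05 over 19775 genes. Array medians lay between 61.8 and 63.9 in intensity, except for 76.3 on the second combination array. That array also had 43.9% of probe sets over 100, against 40.4% to 41.0% on the others, and a GAPDH 3 prime to 5 prime ratio of 1.04 against 0.932 to 0.979. The correlation across genes between the 2 arrays of a group was 0.980 for the combination and 0.993 for PF-03084014. When genes were ranked by mean intensity into 4 groups of equal size, the 4944 genes of the second dimmest group stood out. There the second combination array lay a median of 0.40 above the PF-03084014 mean and the first 0.01 above it. Counts with the arrays rescaled and without this array are given below. The 9 of 10 T-lineage markers measured, among them CD3D and LCK, had PF-03084014 means of at least 100 in intensity.

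Adding dexamethasone to PF-03084014 changed 562 genes, 2.84% of those tested. Of these, 215 rose (1.09%) and 347 fell (1.75%), and the change was at least 2-fold for 61 of the rises (0.308%) and 44 of the falls (0.223%). The median difference over all genes was 0.03. With all array medians set equal, the median over genes was -0.10 and the calls numbered 321. Rises made up 24.0% of the calls then and 38.3% of those from the values as deposited. All 562 genes kept their direction under that shift. Quantile normalization gave 516 calls.

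The number of calls depended on how the spread between arrays was estimated. Leaving out an array of another treatment lowered it, to 112 and 116 without the first or second DMSO array and to 11 without either dexamethasone array. It was 10 without the first PF-03084014 array, 8 without the second, 3911 without the first combination array and 502 without the second. A fit of only the 4 arrays compared called 0 genes by limma, with 2551 genes at an unadjusted p under 0.05 and a smallest adjusted p of 0.136, and a fit with array weights called 18. The directions of the 562 were the same in each of these fits. Arrays of DMSO and dexamethasone do not enter the difference, so leaving them out, or fitting only the 4 arrays, could not change a direction. With array weights the median difference over genes was 0.02709, as without weights, so agreement there says little either. Not every setting kept all directions. The direction was the same for 509 of the 562 with a floor of 64, and for 551 with each gene's probe sets averaged. Of 72 genes followed by name that were called, 50 were called without the second combination array, and 38 when all probe sets of a gene were averaged. PFKFB2, TSC22D3, EOMES, BCL2L11 and BTG1 were called in every fit tried except that of the 4 arrays. For a single gene, 2 arrays against 2 allow an exact permutation test no p below 0.333.

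**Figure D1:**
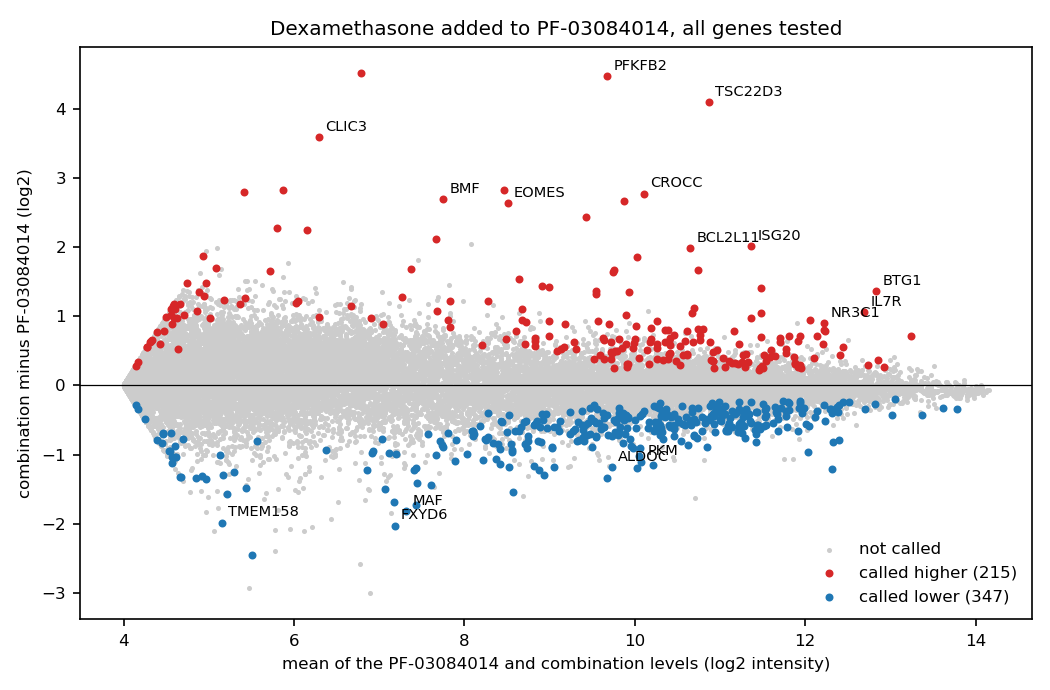
Difference between the combination and PF-03084014 alone (log2, vertical axis) against the mean of both groups' levels (log2 intensity, horizontal axis) for the 19775 genes tested. Red points are the 215 genes called higher and blue points the 347 called lower; PFKFB2 and TSC22D3 stand at the top, and the scatter of uncalled genes is wider on the left, where intensities are low.

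Of 31 known glucocorticoid receptor targets measured, 7 rose, none fell and 24 were not called, while 1.09% of all genes rose. Those that rose were PFKFB2, TSC22D3, ISG20, SMAP2, BTG1, FKBP5 and KLF13, of which PFKFB2 and TSC22D3 are marker genes of this comparison. This list and those below were written with earlier results of these data known, so their counts are descriptions. The list's median difference was 0.28, against 0.03 over all genes, and 19 of the 31 had both combination arrays above both PF-03084014 arrays, a pattern seen in 23.2% of all genes tested. PFKFB2 encodes an enzyme that makes and breaks fructose 2,6-bisphosphate, an activator of glycolysis. Its level was 7.39 and 7.47 with PF-03084014 alone and 11.70 and 12.11 with the combination. The groups lay far apart, and the rise was 4.47 ± 0.14, or 22.2-fold (limma, adjusted p = 0.00184). Its 3 other probe sets had positive differences too, and 2 of them were called.

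TSC22D3 encodes GILZ, a leucine zipper protein that carries part of the anti-inflammatory action of glucocorticoids. Its level was 8.89 and 8.75 with PF-03084014 and 12.94 and 12.91 with the combination. The groups did not overlap, and the rise of 4.10 ± 0.08, or 17.2-fold, had the smallest adjusted p of all genes in the fit (limma, 4.64e-04). The antiproliferative gene BTG1 was bright in every array, with 12.14 and 12.16 for PF-03084014 alone and 13.56 and 13.48 for the combination. The rise of 1.37 ± 0.04 was far larger than the gap between the arrays of either group (adjusted p = 0.00149), and its 2 other probe sets were also called higher. ISG20, an RNA exonuclease, rose by 2.01 ± 0.08 (adjusted p = 0.00341), and SMAP2, a regulator of vesicle traffic, rose by 1.68 ± 0.08 (adjusted p = 0.00425).

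FKBP5 encodes a co-chaperone that lowers the receptor's affinity for hormone. It was already among the bright genes, at 12.87 and 12.91 with PF-03084014, and stood at 13.65 and 13.55 with the combination. The rise at this probe set, its brightest, was 0.71 ± 0.06 (limma, adjusted p = 0.0148). That was smaller than the rises of the targets above, though its arrays did not overlap either. Its 2 other probe sets rose by 1.36 and 1.75, both called, and the mean over its probe sets differed by 1.27. The transcription factor KLF13 rose by 0.55 ± 0.07 (adjusted p = 0.0290), a call not made at the mean over its probe sets, 0.20. Other textbook targets did not pass the test: ZBTB16 differed by 0.70 ± 0.25 (adjusted p = 0.222), DDIT4 by 0.21 ± 0.07 (adjusted p = 0.219), and DUSP1 and SGK1 had differences of -0.05 and -0.25. The thioredoxin inhibitor TXNIP differed by 1.04 (adjusted p = 0.0765).

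CLIC3, a chloride channel family member and one of the 3 marker genes of this comparison, rose from 4.05 and 4.94 to 8.61 and 7.57. Both PF-03084014 values lay close to the floor, and the arrays of each group lay further apart than those of PFKFB2 and TSC22D3, the other markers. The groups did not overlap, and the rise was 3.59 ± 0.43 (limma, adjusted p = 0.0270). In other settings the difference was as low as 2.09. The gene was called in 8 of the 18 other settings that tested it, and not with a floor of 64.

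The receptor gene itself rose. NR3C1 had levels of 11.74 and 11.80 with PF-03084014 and 12.69 and 12.65 with the combination. The difference was 0.90 ± 0.07, or 1.87-fold (limma, adjusted p = 0.0148), and its 4 other probe sets had differences between 0.88 and 1.13, of which 2 were called. Of the 20 measured genes for the receptor, its chaperones and coregulators, NR3C1 and FKBP5 rose, none fell and 18 were not called. Over all genes 1.09% rose. HSP90AA1 and HSP90AB1, which fold the receptor, had differences of -0.11 and -0.10, and the coactivator CREBBP one of 0.41.

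**Figure D2:**
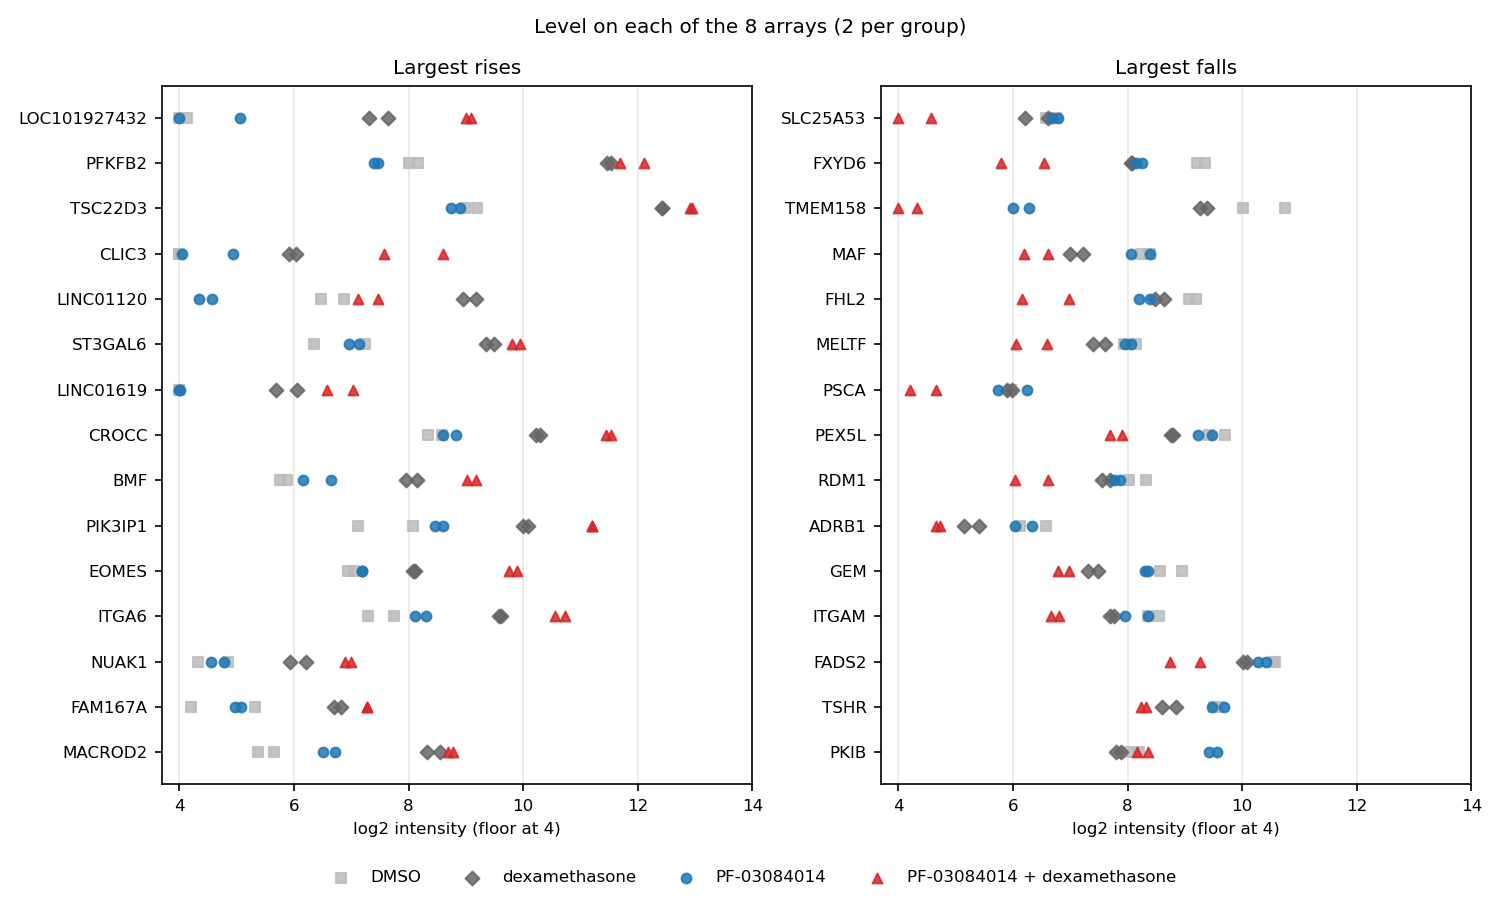
Log2 intensity on each of the 8 arrays for the 15 genes with the largest rises (left) and the 15 with the largest falls (right) among those called in the combination against PF-03084014 alone. Red triangles are the combination, blue circles PF-03084014, dark diamonds dexamethasone and light squares DMSO, 2 arrays each; the red and blue symbols of a gene do not overlap, which the rule that chose the genes required.

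Death-promoting genes of the BCL2 family contained large rises. BCL2L11, which encodes BIM, and BMF, a related BH3-only protein, rose, beside 1.09% of all genes. The other 10 of the 12 measured members were not called. BCL2L11 stood at 9.57 and 9.74 with PF-03084014 and at 11.60 and 11.67 with the combination. Its rise was 1.98 ± 0.07, or 3.95-fold (limma, adjusted p = 0.00184). Its 6 other probe sets differed by 0.49 to 2.05 in the same direction, and 3 of them were called. BMF was dimmer, at 6.16 and 6.65 with PF-03084014 and 9.18 and 9.02 with the combination, a rise of 2.69 ± 0.20 (limma, adjusted p = 0.0148). PMAIP1, BAX and BID had differences of -0.27, -0.16 and -0.32 and were not called.

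The survival members of the family gave 0 calls by limma among 6 measured. BCL2 stood at 10.69 and 10.85 with PF-03084014 and at 10.94 and 10.77 with the combination, so its arrays overlapped (0.08 ± 0.09, adjusted p = 0.654). MCL1 differed by 0.05 ± 0.08 (adjusted p = 0.773) and BCL2L1, which encodes BCL-XL, by 0.01 ± 0.03 (adjusted p = 0.869). Among 20 caspases, death receptors and their adaptors, 1 rose, beside 1.09% of all genes, and 19 were not called. It was CASP8, the initiator caspase of the death receptors, with a rise of 0.47 ± 0.07 (limma, adjusted p = 0.0397). In bulk RNA, fewer cells of a kind and less RNA per cell cannot be told apart, which holds for every level given here.

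Genes for cytokine receptors and their kinases moved in both directions. Of 32 measured, 3 rose and 2 fell, beside 1.09% and 1.75% of all genes, with a median difference of 0.03, the same as for all genes to 2 decimals. IL7R, the interleukin 7 receptor alpha chain that T-cell precursors need to survive, had levels of 12.15 and 12.16 with PF-03084014 and 13.16 and 13.27 with the combination. The groups lay apart by a rise of 1.06 ± 0.05, or 2.08-fold (limma, adjusted p = 0.00526). JAK1, a kinase that signals from this receptor, rose by 0.31 ± 0.04 (adjusted p = 0.0325), and IL6ST, the gp130 chain, by 0.59 ± 0.09 (adjusted p = 0.0471). IL2RB, an interleukin 2 receptor chain, fell by 0.77 ± 0.12 (adjusted p = 0.0452), and IFNGR2, a chain of the interferon gamma receptor, by 0.80 ± 0.08 (adjusted p = 0.0187). The calls of JAK1 and IL6ST were not made without the second combination array. The 4 other probe sets of JAK1 differed by -0.31 to 0.38 and the 6 others of IL6ST by -0.09 to 0.81. None of these was called.

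Among NF-kappaB subunits, inhibitors and targets, 2 of 21 fell and none rose, beside 1.75% of all genes that fell and 1.09% that rose. TNF, the tumour necrosis factor gene, stood at 9.17 and 9.20 with PF-03084014 and at 8.29 and 8.26 with the combination, a fall of 0.91 ± 0.10 (limma, adjusted p = 0.0246). CD83, an activation marker of lymphocytes, fell by 0.67 ± 0.07 (adjusted p = 0.0211). The inhibitor NFKBIA differed by 0.52 and was not called. Of 28 homing and adhesion genes, the laminin receptor chain ITGA6 rose by 2.43 ± 0.17 (adjusted p = 0.0148), and the lymph node homing receptor CCR7 fell by 0.71 ± 0.09 (adjusted p = 0.0281). The calls of TNF and CCR7 were not made without the second combination array.

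DNA replication genes were lower with the combination. Of 36 measured, 19 fell and none rose, beside 1.75% of all genes that fell. All 36 had both combination arrays below both PF-03084014 arrays, as 20.1% of all genes did. Their median difference was -0.50, with -0.40 on the first combination array and -0.57 on the second, each against the PF-03084014 mean. The genes that fell covered the replicative helicase and its loaders (MCM2, MCM4, MCM5, MCM10, CDC6, CDC45, GINS1, GINS2, GINS4 and ORC1), clamp loaders (RFC2, RFC3 and RFC5), polymerase subunits (POLD1 and POLE2), the Okazaki fragment enzymes FEN1 and LIG1, and the nucleotide supply enzymes RRM2 and TK1. All had PF-03084014 levels of at least 8.97, far above the floor.

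ORC1, a subunit of the origin recognition complex, stood at 9.72 and 9.72 with PF-03084014 and at 8.96 and 8.88 with the combination. That was a fall of 0.80 ± 0.07 (limma, adjusted p = 0.0148). POLD1, the catalytic subunit of polymerase delta, went from 10.26 and 10.30 to 9.63 and 9.27, a fall of 0.83 ± 0.12 (adjusted p = 0.0362), with the second combination array the lower one. RFC5 was lower by 0.67 ± 0.04, with the smallest adjusted p of the list (0.00781). The number called lower depended on which array was left out, as did the count over all genes. None of the 36 was called without an array of PF-03084014 or of dexamethasone. The list's median stayed between -0.40 and -0.57 with any 1 array left out.

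Promoters of the replication genes are shown because E2F factors are textbook regulators of S phase genes. The motif was chosen after the falls had been seen. A match to TTTCCCGC or TTTGGCGC on either strand, 2 different words, within 250 bases before to 50 bases after the start, was present in 16 of the 33 list members with a promoter in the RefSeq table (GRCh38.p14), or 48.5%. Over all tested genes with a promoter the share was 2.99% (460 of 15384). It was 6 of 16 (37.5%) among the list members that fell, so the match did not mark out the members called. For GINS2, LIG1 and RFC3, the members that fell with a match lying wholly before the start, the match is in capitals with 25 bases on each side, or fewer where the start is nearer, 5′ to 3′ on the gene's strand:
GINS2, chr16:85688955-85689010, minus strand: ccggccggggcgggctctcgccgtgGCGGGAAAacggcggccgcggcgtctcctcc
LIG1, chr19:48170426-48170483, minus strand: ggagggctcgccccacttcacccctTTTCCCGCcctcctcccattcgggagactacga
RFC3, chr13:33818069-33818126, plus strand: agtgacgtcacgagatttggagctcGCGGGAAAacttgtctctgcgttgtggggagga
Relative to the start, the match begins at position -31 in GINS2, -114 in LIG1 and -55 in RFC3. GINS2 encodes a helicase subunit and fell by 0.75 ± 0.11 (limma, adjusted p = 0.0367), LIG1 encodes the ligase that joins Okazaki fragments and fell by 0.72 ± 0.07 (adjusted p = 0.0208), and RFC3 encodes a clamp loader subunit and fell by 0.31 ± 0.05 (adjusted p = 0.0450). These matches are descriptions of the sequence and say nothing about binding in these cells. The palindromic consensus of the glucocorticoid response element, searched on either strand in the same windows, matched 0 of 176 promoters of genes that rose and 0.312% of all tested. No match says only that these letters are not in this window.

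The G1 and mitotic lists had median differences of -0.21 and -0.19. CDK2, the kinase of the entry into S phase, stood at 11.72 and 11.75 with PF-03084014 and at 11.16 on both combination arrays. Its difference was -0.58 ± 0.03 (limma, adjusted p = 0.0104), though its 2 other probe sets differed by -0.27 and 0.55 and the mean over its probe sets by -0.10. CCNE1, its cyclin partner, fell by 0.79 ± 0.07 (adjusted p = 0.0154), with -0.41 at the mean over its probe sets, where neither gene was called. These were the 2 called among 23 G1 cyclins, CDKs and inhibitors, beside 1.75% of all genes that fell. Of 35 mitotic genes 4 fell, namely KIF2C, BUB1, CCNB1 and CDK1. KIF2C and CCNB1 were not called without the second combination array, and CCNB1 was not called after quantile normalization either. The proliferation marker MKI67 differed by -0.06 and was not called.

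Glycolysis genes were split between PFKFB2, which rose, and 8 of 27 measured members, which fell, beside 1.75% of all genes. The list's median difference was -0.38, against 0.03 over all genes. The falls were in ALDOC, ENO2, PKM, GPI, PFKL, TPI1, ENO1 and LDHA, enzymes of the glycolytic chain and lactate formation. ALDOC, an aldolase, stood at 10.26 and 10.38 with PF-03084014 and at 9.13 on both combination arrays, a fall of 1.18 ± 0.08, or 2.27-fold (limma, adjusted p = 0.0148). PKM, the pyruvate kinase of proliferating cells and muscle, went from 10.65 and 10.60 to 9.77 and 9.27 and fell by 1.10 ± 0.16 (adjusted p = 0.0391). ENO2, an enolase, fell by 1.20 ± 0.20 (adjusted p = 0.0489), a call not made without the second combination array. The glucose transporter SLC2A1 differed by 0.75 and SLC2A3 by -0.76, neither called. How many members were called lower depended on which array was left out, as did the count over all genes. No fall was called without an array of PF-03084014 or of dexamethasone.

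Cholesterol synthesis genes had a median difference of -0.51, against 0.03 over all genes, and 6 of 18 fell, beside 1.75% of all genes. They were HMGCS1, IDI1, SQLE, MSMO1 and DHCR7, all enzymes of the pathway, and STARD4, a sterol transport protein. STARD4 went from 9.88 and 9.96 to 9.10 and 9.26, a fall of 0.75 ± 0.08 (limma, adjusted p = 0.0231). IDI1 fell by 0.66 ± 0.07 (adjusted p = 0.0224) and SQLE by 0.65 ± 0.09 (adjusted p = 0.0367). Not all 6 were called without the second combination array. No fall in the list was called when 1 array of PF-03084014 alone, dexamethasone alone or DMSO was left out. In purine, pyrimidine and folate synthesis, GMPS, PHGDH and PAICS fell among 25 measured, PAICS not without the second combination array.

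Lists of the translation and respiration machinery stayed near the median of all genes, of which 2.84% were called. No cytosolic ribosomal protein gene (33 measured, median -0.07), respiratory chain gene (37, median -0.09) or aminoacyl-tRNA synthetase gene (17, median -0.02) was called by limma. In ribosome biogenesis 1 of 31 was called, BYSL, which fell by 0.90 ± 0.09 (adjusted p = 0.0211), a call not made without the second combination array, with a list median of 0.04.

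**Figure D3:**
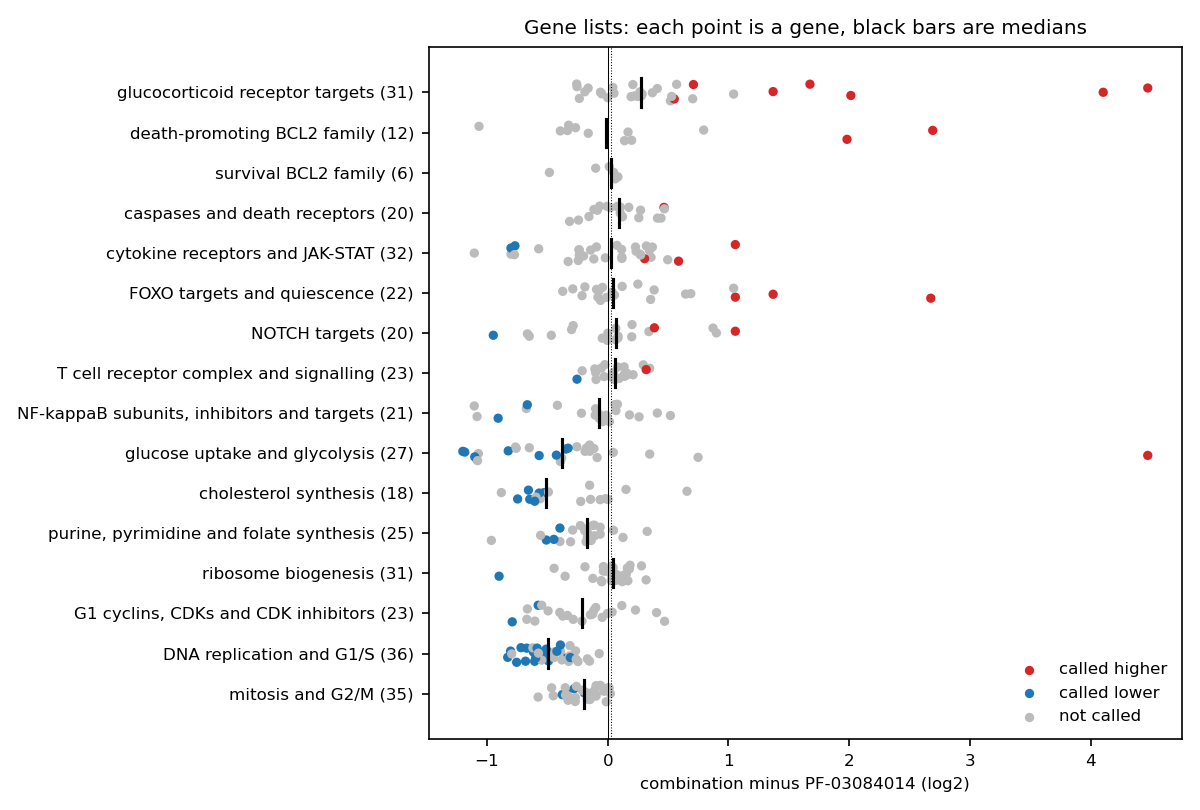
Difference between the combination and PF-03084014 alone (log2, horizontal axis) for each measured member of 16 gene lists, with the number measured in brackets. Red and blue points were called higher or lower and grey points were not called; black bars are list medians and the dotted line the median of all genes. The DNA replication points all lie below 0, with a median of -0.50, and PFKFB2, in the lists of receptor targets and glycolysis, is the point at 4.47.

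Of 20 NOTCH target genes, 2 rose and 1 fell when dexamethasone was added, beside 1.09% and 1.75% of all genes. The other 17 were not called. DTX1, a NOTCH regulator and target, stood at 11.53 and 11.60 with DMSO and at 9.39 and 9.37 with PF-03084014, a check of the inhibitor's label, and at 9.58 and 9.35 with the combination (0.09 ± 0.08, limma, adjusted p = 0.608). HES5, a repressor induced by NOTCH, was the member of the 20 that fell, from 7.53 and 7.28 to 6.39 and 6.53 (-0.95 ± 0.13, adjusted p = 0.0322). That call was not made without the second combination array. HES1, HES4 and NRARP, a feedback inhibitor, had differences of -0.47, -0.67 and -0.65 that were not called (adjusted p = 0.192, 0.251 and 0.0946). A dimmer probe set of HES1 was called lower in the fit of all probe sets with 1 gene (-0.82 ± 0.10, limma, adjusted p = 0.0354). MYC differed by 0.07 ± 0.10 (adjusted p = 0.756). IL7R and PTCRA, the pre-T cell receptor alpha chain, were the 2 that rose; PTCRA did so by 0.39 ± 0.04 (adjusted p = 0.0211), while its 2 other probe sets differed by -0.13 and 0.07.

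Calls among T-cell identity genes are set beside the 1.09% of all genes that rose and the 1.75% that fell. Of 23 genes of the T cell receptor complex and its signalling, CD8A rose by 0.32 ± 0.05 (limma, adjusted p = 0.0493) and CD6 fell by 0.25 ± 0.04 (adjusted p = 0.0365), and of 22 immature thymocyte genes PTCRA was the one called. CD8A was not called without the second combination array. Markers of other cells were also read. The summed intensity of the 10 myeloid markers measured of 12 was 678 and 712 with PF-03084014 and 458 and 694 with the combination. ITGAM, the integrin CD11b, was the 1 of them called and fell by 1.42 ± 0.17 (adjusted p = 0.0253). It was not called without the second combination array, its other probe set differed by -0.02, and the mean over both was -0.72. CD14 lay at the floor on both PF-03084014 arrays. For the 9 of 10 B-lineage markers measured the sums were 2112 and 2114 against 2678 and 2490, with none called and VPREB1 at the floor on all 4 arrays. The sums for 9 of 12 erythroid and megakaryocyte markers were 802 and 871 against 690 and 1035. Those for 12 of 12 epithelial and stromal markers, mostly VIM, were 10775 and 10385 against 10207 and 9066, again with none called.

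Among the 15 largest rises were further genes of T cells and signalling. EOMES, a T-box transcription factor of effector T cells, stood at 7.18 and 7.19 with PF-03084014 and at 9.89 and 9.76 with the combination. The arrays of each group were close together and the rise was 2.64 ± 0.09, or 6.22-fold (limma, adjusted p = 0.00184). CROCC, the gene of the ciliary rootlet protein rootletin, rose by 2.77 ± 0.11 (adjusted p = 0.00332), although its 2 other probe sets differed by -0.36 and 0.77. PIK3IP1, an inhibitor of phosphatidylinositol 3-kinase, went from 8.47 and 8.59 to 11.21 and 11.20, a rise of 2.68 ± 0.30 (adjusted p = 0.0240). The sialyltransferase gene ST3GAL6 rose by 2.82 ± 0.29 (adjusted p = 0.0210). The calls of PIK3IP1 and ST3GAL6 were not made without the second combination array.

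The uncharacterised gene LOC101927432 rose by 4.52 ± 0.36 (limma, adjusted p = 0.0148), a size that depends on the floor and was as low as 3.05 in other settings. It stood at the floor on the first PF-03084014 array, at 5.05 on the second, and at 9.09 and 9.01 with the combination. LINC01619, a long noncoding RNA gene, lay at 4.01 and at the floor with PF-03084014 and at 7.04 and 6.58 with the combination. LINC01120 rose by 2.83 ± 0.23, but its other probe set differed by -1.20. NUAK1, an AMPK-related kinase, rose by 2.28 ± 0.23 and MACROD2, an ADP-ribose hydrolase, by 2.12 ± 0.17.

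Among the 15 largest falls, several genes had combination arrays that stood well apart from each other. FXYD6, a regulator of the sodium pump, went from 8.15 and 8.24 to 6.55 and 5.79, a fall of 2.03 ± 0.25 (limma, adjusted p = 0.0282). MAF, a transcription factor of helper T cells, went from 8.40 and 8.06 to 6.62 and 6.19 and fell by 1.82 ± 0.21 (adjusted p = 0.0246), with its 5 other probe sets between -1.57 and 1.17 and the mean over its probe sets at -0.65. FHL2, a LIM domain coregulator, went from 8.39 and 8.21 to 6.98 and 6.15, a fall of 1.73 ± 0.28. SLC25A53 and TMEM158 each had 1 combination array at the floor, with differences of -2.45 ± 0.26 and -1.99 ± 0.28. GEM, a small GTPase, fell by 1.45 ± 0.17 (adjusted p = 0.0246), and FADS2, a fatty acid desaturase, by 1.34 ± 0.17 (adjusted p = 0.0293), with -0.88 and no call at the mean over its probe sets. Of these, the calls of TMEM158 and GEM were not made without the second combination array.

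The same glucocorticoid given without PF-03084014 allows the comparison of its action in both settings. These 2 contrasts share no array but do share each gene's estimate of spread, taken from all 8 arrays. Calls in both are therefore not independent of each other. Against DMSO, dexamethasone alone changed 20 genes (0.101%), of which 17 rose (0.0860%), 14 of them at least 2-fold (0.0708%), and 3 fell (0.0152%). All 17 that rose with dexamethasone alone also rose when it was added to PF-03084014, which is 7.91% of the 215 rises there. Their median difference was 1.68 with PF-03084014 and 1.23 without, and 12 of the 17 had the larger difference with PF-03084014. TSC22D3 rose by 4.10 with and 3.34 without the inhibitor, PFKFB2 by 4.47 and 3.41, and BTG1 by 1.37 and 1.21. MACROD2 differed by 2.12 with and 2.92 without it, and TMT1A by 1.36 and 1.71. The 3 genes that fell with dexamethasone alone, SCAT1, LINC02805 and HIC1, lay at or near the floor in all PF-03084014 and combination arrays, so no difference could be measured there.

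The test of the difference itself, the effect of dexamethasone with PF-03084014 minus its effect without, called 0 genes by limma, with 1792 genes (9.06%) at an unadjusted p under 0.05 and a smallest adjusted p of 0.306. It called 8 genes with a floor of 64 in place of 16, and 1016 without the first combination array. It does not follow that the effects were alike. For BCL2L11 the difference of effects was 0.94 ± 0.10, with a 95% interval of 0.70 to 1.19 for this gene alone (adjusted p = 0.306). Its levels were 9.38 and 9.44 with DMSO and 10.45 on both dexamethasone arrays, so the combination arrays at 11.60 and 11.67 were the highest of the 8. EOMES had a difference of effects of 1.54 ± 0.13 (95% interval 1.21 to 1.87, adjusted p = 0.306) and IL7R one of 0.77 ± 0.07 (95% interval 0.59 to 0.95, adjusted p = 0.306).

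For NR3C1 the effect was 0.90 with and 0.32 without PF-03084014, and the difference of 0.58 had a 95% interval of 0.32 to 0.84 (limma, adjusted p = 0.319). For FKBP5 the effects at its brightest probe set were 0.71 and 0.68, and the interval of their difference ran from -0.17 to 0.23 (limma, adjusted p = 0.897). Of the genes that fell with the combination, ORC1 had effects of -0.80 with and -0.13 without the inhibitor, a difference of -0.68 (95% interval -0.91 to -0.45, adjusted p = 0.319). CCNE1 had effects of -0.79 and -0.10, and ALDOC of -1.18 and -0.59, each with an adjusted p of 0.319 for the difference. The 36 DNA replication genes had a median difference of -0.13 with dexamethasone alone, where 0.0152% of all genes were called lower, none of them in the list. Across all genes the 2 sets of differences had a Pearson correlation of 0.205, and of 0.469 over the 10793 genes with a mean intensity of at least 100, which describes genes and not replicates.

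**Figure D4:**
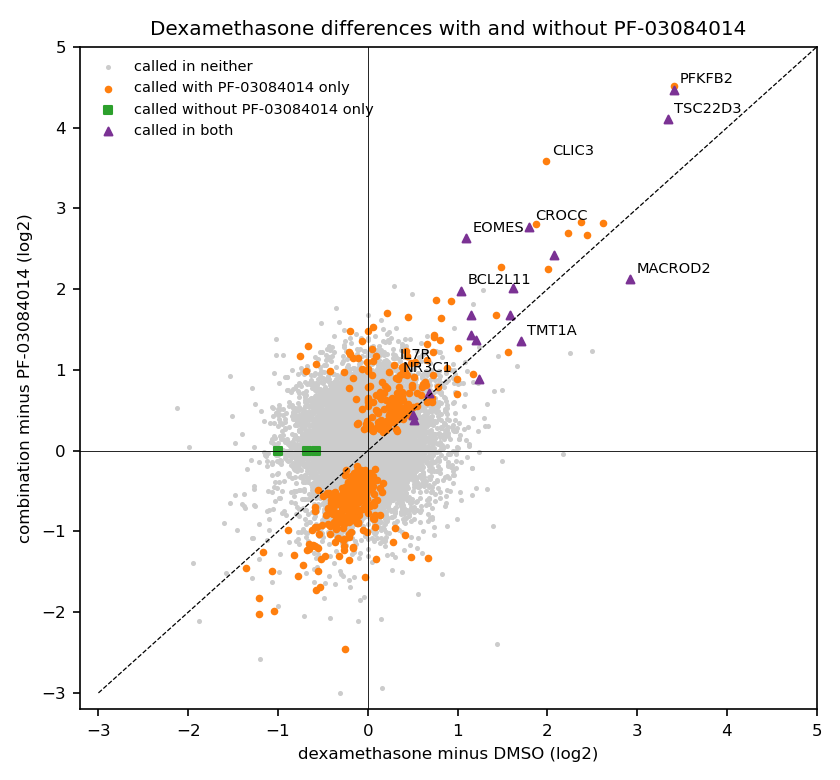
Difference made by dexamethasone with PF-03084014 (combination minus PF-03084014, vertical axis) against that without it (dexamethasone minus DMSO, horizontal axis), both log2, 1 point per gene. Purple triangles are the 17 genes called in both, orange points those called with PF-03084014 only and green squares the 3 called without it only; the dashed line marks equal differences, and 12 of the 17 triangles lie above it.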

How the data were processed

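Per the labels, 200 ng of total RNA per sample was amplified and biotinylated with an Affymetrix 3 prime IVT kit. The authors deposited linear intensities of 54675 probe sets. How these were summarised and scaled is not given in the sources used here. Intensities below 16 were set to 16 and converted to log2. Probe sets were named through GEO's platform annotation, with symbols checked by Entrez ID against RefSeq (41043 of 41097 matched). The 1801 probe sets with several genes were left out, and the brightest probe set on average stood for each gene.

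The test was limma (3.58.1, under R 4.3.3; lmFit, eBayes with an intensity trend, 4 residual degrees of freedom, 1.36 prior degrees of freedom), two-sided. The median standard error was 0.178. On simulated data with these means, 71 of 100 genes changed by 1 on the log2 scale were recovered. The changed genes all had a mean above 100 in intensity, and each gene had the same spread in every group. In the data the SD across genes of the difference between the 2 arrays was 0.5485 for the combination and 0.3252 for PF-03084014. The number of arrays limits the precision.

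Genes named with values were the 15 largest rises and falls called with non-overlapping arrays and a higher mean of at least 64, a fixed set of receptor, apoptosis and NOTCH genes, and up to 3 called members per direction of each of 33 lists. Other list members are named beside their list's count, and a few uncalled ones were chosen after their values were seen. Some called genes are given with values outside this rule. Examples are SMAP2, RFC5 for its adjusted p, and LIG1 and RFC3 for their promoter matches. The members and lists were chosen with earlier results of these data known. Alternatives covered scaling, floor, pseudocount, an intensity filter, probe-set choice, variance model, replicate block and each array left out.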

Additional observations from a re-analysis of the deposited data

Results flagged for a closer look

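For 3 of the 95 genes followed by name both combination arrays lay above both PF-03084014 arrays while both dexamethasone arrays lay below both DMSO arrays. The difference of effects was 0.20 for NARS1, an aminoacyl-tRNA synthetase (95% interval 0.07 to 0.33, limma, adjusted p = 0.407). It was 0.79 for DCN, which encodes the matrix protein decorin and was read at low intensity (0.17 to 1.40, adjusted p = 0.466), and 0.49 for the metallothionein MT1X (0.07 to 0.91, adjusted p = 0.505). None of the 3 was called in either contrast or in the test of the difference.

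Among the 13522 probe sets that name no single gene here, 71 were called between the combination and PF-03084014 alone, 30 higher and 41 lower. The share was larger among the genes tested, where 562 of 19775 (2.84%) were called. The largest rise was of an unnamed probe set, from 6.41 and 6.22 to 9.92 and 9.86 (3.57 ± 0.14, limma, adjusted p = 0.00552).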

How the results depend on the processing

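The count of 562 genes called was 321 with arrays shifted to a common median, 936 over genes with a mean intensity of at least 100 (10792 tested), 285 with the mean of all probe sets, 260 without the intensity trend, 18 with array weights and 0 in the fit of only the 4 arrays compared. Leaving out 1 array at a time gave 8 to 3911 calls for the combination against PF-03084014 and 0 to 1016 for the difference of effects, with the lone array of a group assumed to vary like the others. A floor of 64 gave 8 calls for the difference of effects. Quantile normalization (516), a pseudocount of 16 (697), the floor of 64 (481) and, chosen after seeing the data, quantile normalization without the second combination array (391) stayed within 1.5 times. Correlations of array deviations between groups by replicate number lay between -0.01 and 0.08, so no deviation shared by number was visible. Low values cannot exclude that the arrays were paired, and the labels do not say. With the replicate block 380 genes were called, and 0 for the difference of effects. The 72 named genes that were called kept their direction in every setting that tested them, and 50 of them were called both without the first and without the second combination array. Leaving out arrays of DMSO or dexamethasone could not change a direction, as they do not enter the difference. Each group had 2 arrays, and 13.2% to 15.2% of probe sets per array lay at the floor. The causes of these changes in counts were not tested.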

Other observations

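Another 4 gene lists were written after the values had been seen, so their counts are descriptions with no test of the list. In replication checkpoint and licensing control, 18 of 23 measured genes fell and none rose (median difference -0.56), among them the phosphatase CDC25A, which fell by 0.86 ± 0.09 (limma, adjusted p = 0.0219), and DTL, a substrate receptor for the removal of CDT1, which fell by 0.82 ± 0.07 (adjusted p = 0.0154). In homologous recombination and Fanconi repair, 9 of 23 fell and none rose (median -0.38), with RAD54B lower by 0.73 ± 0.08 and FANCG by 0.64 ± 0.04. Fatty acid synthesis and desaturation had 4 falls among 17 (median -0.23). They were FADS2, ELOVL6, an elongase that fell by 1.16 ± 0.09, the desaturase SCD, which fell by 0.80 ± 0.10, and SREBF1, the transcription factor of lipid synthesis, which fell by 0.81 ± 0.09. The median over all genes was 0.03, and 1.75% of all genes fell.

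In phosphatidylinositol 3-kinase, insulin receptor substrate and mTOR signalling, 4 of 24 rose and 1 fell, beside 1.09% and 1.75% of all genes. PIK3IP1 rose, as did PRR5, a subunit of the mTORC2 complex, which went from 9.06 and 9.13 with PF-03084014 to 11.16 and 10.75 with the combination (1.86 ± 0.14, limma, adjusted p = 0.0148). PIK3R1, the regulatory subunit p85alpha, rose by 1.04 ± 0.14 (adjusted p = 0.0338) and IRS1 by 0.38 ± 0.05 (adjusted p = 0.0253). PIK3CD, the catalytic subunit p110delta, fell by 0.62 ± 0.06 (adjusted p = 0.0211).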
